A study of Mus musculus with 12 samples.

Results

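The genes described here encode the proteins of the cytosolic ribosome. They are the 85 genes, of 24411 in the deposited table, whose symbol is Rpl or Rps followed by a number and, for some, a short suffix, together with Rplp0, Rplp1, Rplp2 and Rpsa. Of these, 43 encode proteins of the large 60S subunit, 31 proteins of the small 40S subunit including Rpsa, 3 the P proteins of the ribosomal stalk, and 8 are paralogs of one of these genes. The symbols of the ribosomal S6 kinases and of pseudogenes written with a hyphen do not match the rule. Fau, which encodes a ribosomal protein fused to a ubiquitin-like protein, does not match it either.

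Poly(A) RNA was sequenced from whole livers of mice at 3 months of age, with 3 mice for each of 3 genotypes. All 9 mice carried homozygous floxed Atg7 alleles and were on a C57BL/6 background. The cont. mice carried no Cre. The Atg7-KO mice also carried Alb-Cre, a Cre recombinase driven by the albumin promoter, which removes Atg7 in hepatocytes. Atg7 is an enzyme needed to form autophagosomes. The Atg7-KO;p62T352A mice carried in addition a homozygous germline knock-in that puts alanine in place of a threonine of p62 (gene Sqstm1), a selective autophagy receptor that holds KEAP1. Mice with the knock-in and no Cre are not analysed here. The comparisons ask how autophagy loss in hepatocytes changes the liver transcriptome, and how far that change depends on the binding of KEAP1 to p62.

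Each ribosome holds one copy of most of these proteins, so hepatocytes, which make most plasma proteins, need them in nearly equal amounts. Most of their mRNAs begin with a 5′ terminal oligopyrimidine tract, a run of C and U at the cap, through which the kinase mTOR and the RNA-binding protein LARP1 control their translation and stability together. The mRNAs are short and abundant, and the mouse genome holds many processed copies of them.

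The RNA-seq totals ran from 9671080 to 23285132 counts per mouse. The targeted gene was checked in every mouse in normalised CPM, which are counts scaled to the size of the library after TMM correction. Atg7 stood at 44.2 to 55.4 in cont. mice, 9.57 to 12.0 in Atg7-KO mice and 27.4 to 29.7 in Atg7-KO;p62T352A livers, so its level was lower in both Cre groups, and higher in the second of them than in the first. Sqstm1 stood at 314 to 505, 871 to 959.7 and 497 to 626 in the same order. Albumin and 7 other hepatocyte markers summed to 77099 to 137174 in cont. mice, 37400.4 to 39728 in Atg7-KO mice and 113723 to 131261 in Atg7-KO;p62T352A mice. The 6 cholangiocyte markers summed to 33.6 to 51.6, 829 to 1024 and 181 to 266 in the same order, and the 10 Kupffer cell and macrophage markers to 310.4 to 408, 988 to 1082 and 227 to 454. The 6 stellate cell markers summed to 229 to 287, 818 to 969 and 340.2 to 577, the 6 lymphocyte markers to 14.04 to 26.2, 59.9 to 66.5 and 20.7 to 23.35, the 6 endothelial markers to 351.8 to 423, 290.1 to 308 and 197 to 237, and the 5 erythroid markers to 518 to 1118, 314 to 378 and 558 to 890.4. None of these markers was at 0 in all mice. Single markers went against the sum of their list in Atg7-KO vs cont. livers. The log2 fold change was above 0 in 9 of the 10 Kupffer cell and macrophage markers and -1.31 in Timd4. It was below 0 in 4 of the 6 endothelial markers and 1.57 in Lyve1, and below 0 in 4 of the 5 erythroid markers and 1.40 in Hba-a1. In whole tissue, fewer cells of a type and less RNA per cell cannot be told apart, and the part of cell composition in the ribosomal protein results was not tested. The mice numbered 1 in each genotype had 7 to 28 counts of Xist, the RNA of the inactive X chromosome, and the other mice 8578 to 18335. The labels give no sex. The 3 comparisons share groups, so their values are set side by side and not correlated.

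The start sequences of some genes named below are shown because a cap-proximal run of pyrimidines is known from most of these mRNAs. Each window holds 10 bases before and 20 bases from the start annotated by RefSeq on GRCm38.p6, 5′ to 3′ on the gene's strand, so that the first transcribed base is the 11th letter. Capitals mark a run of 7 or more C or T that covers the first transcribed base or begins within 5 bases of it. The first 5 genes were higher in Atg7-KO;p62T352A than in Atg7-KO livers and the last 3 lower. The windows shown are not in proportion to the whole set. Of the tested genes with an annotated start, 10 of the 24 with a run (41.7%) and 9 of the 37 without one (24.3%) were higher in this comparison. Of those with a run 0 were lower, and of those without one 3 (8.11%). Among all tested genes 24.7% were higher and 26.2% lower. Rpl36al is shown as a higher gene without a run.
Rpl35 (chr2:39005112-39005141, minus strand): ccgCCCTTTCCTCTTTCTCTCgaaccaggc
Rps18 (chr17:33955646-33955675, minus strand): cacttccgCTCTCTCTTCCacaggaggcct
Rpl14 (chr9:120571507-120571536, plus strand): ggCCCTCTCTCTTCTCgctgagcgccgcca
Rpl28 (chr7:4792955-4792984, plus strand): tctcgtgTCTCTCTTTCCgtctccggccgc
Rpl36al (chr12:69184048-69184077, minus strand): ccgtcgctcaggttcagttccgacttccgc
Rps4x (chrX:102189372-102189401, minus strand): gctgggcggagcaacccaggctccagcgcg
Rplp0 (chr5:115559457-115559486, plus strand): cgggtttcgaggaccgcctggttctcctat
Rpl9 (chr5:65391412-65391441, minus strand): gggccctgacggattacaagaacgtgatga
The run was 18 bases long in Rpl35, 14 in Rpl14 and 11 in Rps18 and Rpl28. Of the 85 ribosomal protein genes, 64 had a start in the RefSeq table, and 24 of these (37.5%) held such a run, against 10.8% of the 27025 genes with a start. A window without a run says only that these letters are not at the annotated start, which can lie off the start used in liver.

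Of the 85 genes, 82 passed the filter on low counts and were tested among 13922 genes. The remaining 3 were paralogs known from other tissues. Rpl10l, a testis gene, had 0 counts in all 9 mice. Rpl39l, also known from testis, had at most 3 counts in a mouse, and Rpl3l, known from striated muscle, at most 4. The mean levels of the 82 genes ran from 3.07 to 787 normalised CPM with a median of 316. Per kb of annotated transcript, the 43 genes of the 60S subunit and the 31 of the 40S subunit had close median levels, at 365 and 370.0 CPM per kb. The 5 tested paralogs had a median of 72.0. Rplp1, a P protein of the stalk, had the highest level per kb at 1197, followed by Rpl36 at 827 and Rps18 at 822. A level per kb depends on the transcript chosen to stand for the gene.

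Some of the low levels belong to genes whose sequence lies nearly whole or in part in another annotated gene. Rps27 had 17 to 36 counts in 8 mice and 311 in Atg7-KO mouse 3, and 98.5% of its 75-base stretches are also found in Rps27rt. Rpl26, Rpl30 and Rpl34 had mean levels of 7.06, 9.69 and 30.9 normalised CPM, and 40.2%, 24.5% and 30.5% of their stretches are shared with Gm15772, Gm12191 and Rpl34-ps1. At 75 bases, the read length of the study, 38 of the 85 genes shared at least 50% of their stretches with another annotated gene, and 19 shared under 20%. Values of genes with many shared stretches are uncertain, since the estimate of the counts can split reads between copies.

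As a share of the deposited counts, the ribosomal protein genes took the lowest part in cont. livers. They held 1.84%, 1.87% and 2.02% of all counts in the cont. mice (1.91% ± 0.0946, SD, n = 3). They held 3.25%, 2.97% and 3.49% in the Atg7-KO mice (3.24% ± 0.261) and 2.43%, 2.98% and 2.61% in the Atg7-KO;p62T352A mice (2.67% ± 0.279). Every mouse with Cre stood above every cont. mouse, while mouse 2 of the Atg7-KO;p62T352A group stood level with the lowest Atg7-KO mouse. The share was 1.70 times as high in Atg7-KO as in cont. livers and 1.40 times as high in Atg7-KO;p62T352A as in cont. livers, each with p = 0.1 in a two-sided exact permutation test, the smallest p that 3 against 3 mice allow. The share in Atg7-KO;p62T352A was 0.825 times that in Atg7-KO livers (exact p = 0.2).

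**Figure D1:**
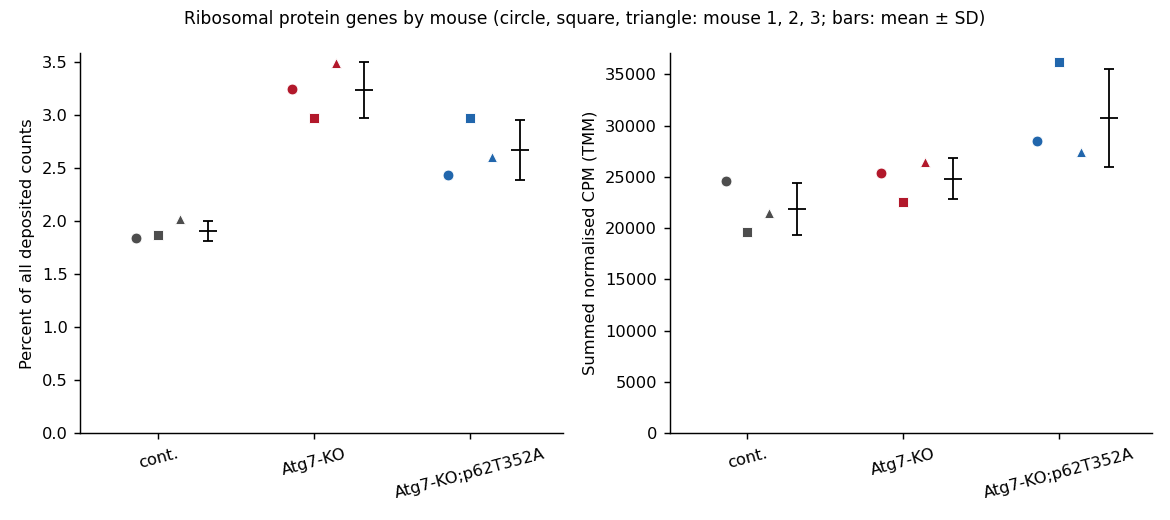
The left panel plots the percent of all deposited counts in the 85 ribosomal protein genes and the right panel their summed TMM-normalised CPM, with one symbol per mouse and the mean ± SD beside each genotype. In the left panel the Atg7-KO mice stand highest, at 2.97% to 3.49%, and in the right panel the Atg7-KO;p62T352A mice do, at 27455 to 36204 CPM.

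The order of the Cre groups depended on the scale. The 20 most abundant genes held 12.7% to 13.4% of an Atg7-KO library, 19.7% to 27.7% in cont. and 21.8% to 24.99% in Atg7-KO;p62T352A mice, and the TMM factors, which correct for such differences in composition, were 1.28 to 1.32, 0.750 to 0.953 and 0.823 to 0.951. After TMM scaling, the genes summed to 21884 ± 2513 normalised CPM in cont. mice, 24814 ± 2018 in Atg7-KO mice and 30715 ± 4782 in Atg7-KO;p62T352A livers (SD, n = 3 each). On this scale the Atg7-KO;p62T352A mice, at 27455 to 36204, stood above all Atg7-KO mice, at 22574 to 26487, while the Atg7-KO and cont. mice overlapped. All fold changes that follow are on the TMM scale, on which the median log2 fold change of all 13922 tested genes was -0.03, 0.00 and 0.00 in the 3 comparisons. With library totals alone it was 0.55 in Atg7-KO vs cont. and -0.57 in Atg7-KO;p62T352A vs Atg7-KO. Relative to the median of all genes, the median of the ribosomal protein genes was 0.21 and 0.29 in these comparisons with TMM and 0.21 and 0.28 with library totals.

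In Atg7-KO vs cont. livers, few ribosomal protein genes changed. By edgeR's quasi-likelihood test with an adjusted p under 0.05 and a fold over 1.5, 4 of the 82 tested genes were higher and 1 was lower, where 21.6% of all tested genes were called higher and 22.1% lower. The 4 were Rplp0, Rpl12, Rps7 and Rps15a, and the 1 was Rpl36al. The median log2 fold change was 0.18, with 58 genes above 0 and 24 below it. By the adjusted p alone 5 were higher and 1 lower (22.3% and 23.7% of all tested genes). The mice did not overlap in 13 genes upward and 3 downward, where 29.2% and 26.3% of all tested genes did not. The count of higher genes depended on single mice. It was 21 without cont. mouse 1, 0 without cont. mouse 2 or 3 or Atg7-KO mouse 1 or 3, 2 without Atg7-KO mouse 2 or Atg7-KO;p62T352A mouse 1, and 1 without Atg7-KO;p62T352A mouse 3, and none of the 5 genes was called in every fit with 1 mouse left out. The count was 18 without the 3 mice numbered 1.

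Rplp0, the P protein that anchors the stalk to the 60S subunit, stood at 578, 405 and 417 normalised CPM in cont. mice (467 ± 96.7). It stood at 736, 721 and 805 in Atg7-KO mice (754 ± 44.9) and at 364, 575 and 359 in Atg7-KO;p62T352A mice (432 ± 123). The Atg7-KO mice were above all 6 others, and the other genotypes overlapped. The log2 fold change was 0.69 ± 0.24 (SE) in Atg7-KO vs cont. (edgeR adjusted p = 0.0398) and -0.80 ± 0.24 in Atg7-KO;p62T352A vs Atg7-KO (edgeR adjusted p = 0.0188). The P proteins that bind it as dimers, Rplp1 and Rplp2, had log2 fold changes of 0.45 ± 0.25 and 0.47 ± 0.31 in Atg7-KO vs cont., with edgeR adjusted p of 0.161 and 0.241. Rplp1 stood at 555, 406 and 502 in cont. and 679, 577 and 740.1 in Atg7-KO mice, with no overlap, and at 511, 865 and 541 in Atg7-KO;p62T352A mice, which overlapped both. Rplp2 stood at 187, 127 and 173, then at 225, 198 and 251, and then at 91.8, 214 and 107, in the same order of genotypes. In all 3 stalk genes, mouse 2 was the highest of the Atg7-KO;p62T352A mice.

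Rpl12, the 60S protein at the base of the stalk, stood at 256, 199 and 186 normalised CPM in cont. mice (214 ± 37.6). It stood at 353, 313 and 378 in Atg7-KO mice (348 ± 32.7) and at 369.7, 413 and 302 in Atg7-KO;p62T352A mice (361 ± 55.7). Both Cre groups were above all cont. mice and overlapped each other, and the log2 fold changes against cont. were 0.70 ± 0.20 (edgeR adjusted p = 0.0174) and 0.76 ± 0.20 (edgeR adjusted p = 0.0387). The 40S genes called were Rps7, at 377, 243 and 259 in cont. and 469, 436 and 455 in Atg7-KO mice, and Rps15a, at 139, 73.9 and 74.0 in cont. and 174, 141 and 163 in Atg7-KO mice. In both genes cont. mouse 1 lay closest to the Atg7-KO mice, and the log2 fold changes were 0.63 ± 0.23 and 0.73 ± 0.26 (edgeR adjusted p = 0.0457 and 0.0433).

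Rpl36al, a paralog of Rpl36a, stood at 296, 235 and 244 normalised CPM in cont. mice, 182, 152 and 169 in Atg7-KO mice and 287, 417 and 272 in Atg7-KO;p62T352A mice. The Atg7-KO mice were below all others. The log2 fold change was -0.62 ± 0.21 in Atg7-KO vs cont. (edgeR adjusted p = 0.0353) and 0.96 ± 0.21 in Atg7-KO;p62T352A vs Atg7-KO (edgeR adjusted p = 0.00438), and 61.3% of its stretches are shared with other annotated genes. The genes with the next largest falls by size in Atg7-KO, Rpl36 (-0.50 ± 0.24), Rps4l (-0.50 ± 0.36), Rpl28 (-0.45 ± 0.22) and Rps28 (-0.36 ± 0.25), did not pass the test, with edgeR adjusted p of 0.11, 0.277, 0.125 and 0.267. The largest value upward, 1.62 ± 0.78 in Rps27, came from the 311 counts of Atg7-KO mouse 3 and did not pass either (edgeR adjusted p = 0.113).

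**Figure D2:**
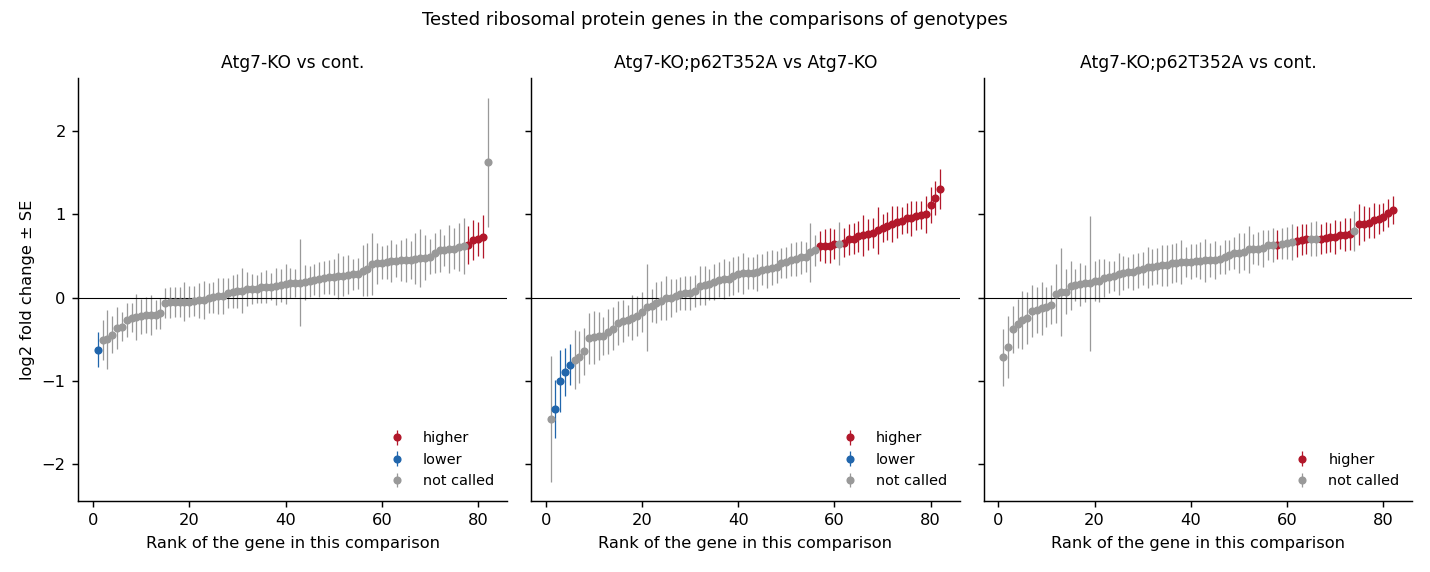
Each panel plots the log2 fold change ± SE of the 82 tested ribosomal protein genes in one comparison, in rising order, coloured by whether edgeR's test with a fold over 1.5 called the gene higher, lower or neither. Called genes number 5 in Atg7-KO vs cont., 29 in Atg7-KO;p62T352A vs Atg7-KO, at both ends, and 19 in Atg7-KO;p62T352A vs cont., all at the upper end.

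In Atg7-KO;p62T352A vs Atg7-KO livers, more ribosomal protein genes were called higher than lower. Of the 82 tested genes, 25 (30.5%) were called higher and 4 (4.88%) lower, against 24.7% and 26.2% of all tested genes. The share called lower was below that of all tested genes, and the share called higher was close to theirs. By the adjusted p alone 27 were higher and 4 lower (26.5% and 27.2%). The median log2 fold change was 0.29. The values ran from -1.45 ± 0.76 in Rps27, set by the same Atg7-KO mouse 3 (edgeR adjusted p = 0.13), to 1.31 in Rpl36. By subunit, 16 of 43 genes of the 60S subunit were higher and 2 lower, and 6 of 31 of the 40S subunit were higher and 1 lower, with medians of 0.34 and 0.26. Of the paralogs, 3 of 5 were higher. The mice of the 2 genotypes did not overlap in 37 genes upward and 9 downward, where 36.4% and 36.8% of all tested genes did not. With each mouse left out in turn, 16 of the 25 higher genes and 1 of the 4 lower genes were called in every fit. The count of higher genes fell to 16 without Atg7-KO mouse 2, and the count of lower genes was 8 without Atg7-KO;p62T352A mouse 2, 2 without Atg7-KO mouse 1 or 2, and 1 without Atg7-KO mouse 3 or Atg7-KO;p62T352A mouse 1 or 3.

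Rps4x, a 40S protein gene on the X chromosome (chrX:102184941-102189394, mm10), had the largest fall among the called genes. It stood at 388, 373 and 387 normalised CPM in Atg7-KO mice (383 ± 8.65) and at 118, 209.7 and 128 in Atg7-KO;p62T352A mice (152 ± 50.4). In cont. mice it stood at 391, 192 and 165, so that mouse 1 lay with the Atg7-KO mice and the other mice with the Atg7-KO;p62T352A mice. The log2 fold change was -1.33 ± 0.34 (edgeR adjusted p = 0.00934), and the gene was called lower under every alternative tried. About 52.9% of its stretches are shared with other annotated genes.

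Rpl3, a core protein of the 60S subunit near the peptidyl transferase centre, stood at 302, 270.5 and 294 in Atg7-KO mice and 105, 217 and 112 in Atg7-KO;p62T352A mice (log2 fold change -1.00 ± 0.37, edgeR adjusted p = 0.0455). Rpl9, another 60S protein, stood at 268, 244 and 271 and at 120.4, 181 and 121 (-0.89 ± 0.29, edgeR adjusted p = 0.027). In both genes, as in Rps4x, no mouse of one genotype reached the other, and cont. mouse 1, at 342 for Rpl3 and 259.7 for Rpl9, was far above cont. mouse 2 (174 and 134) and cont. mouse 3 (137 and 129). At least 83.2% of the stretches of these genes are shared.

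The higher genes were led by Rpl36, a 60S protein. It stood at 188, 166 and 228 normalised CPM in Atg7-KO mice (194 ± 31.3) and at 472, 502 and 467 in Atg7-KO;p62T352A mice (480.4 ± 19.1), while cont. mice stood at 188, 291 and 347. The Atg7-KO;p62T352A mice were above all others, and cont. mouse 1 lay within the Atg7-KO mice. The log2 fold change was 1.31 ± 0.24 (edgeR adjusted p = 0.00176). Rps18, a protein of the 40S head that meets the large subunit, stood at 304, 277 and 339.7 in Atg7-KO mice and 630.1, 809.6 and 672 in Atg7-KO;p62T352A mice (1.20 ± 0.21, edgeR adjusted p = 0.00126).

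Rpl38, a small 60S protein known for its part in the translation of Hox mRNAs, stood at 201, 162 and 209 in Atg7-KO mice and 404, 461 and 373 in Atg7-KO;p62T352A mice (1.11 ± 0.22, edgeR adjusted p = 0.00221). Rpl28 stood at 421, 354 and 452 and at 828, 922 and 705 (1.00 ± 0.22, edgeR adjusted p = 0.00464). Rpl14 stood at 221, 195 and 235 and at 437, 447 and 409.8 (0.99 ± 0.17, edgeR adjusted p = 0.00128). In each of these genes the lowest Atg7-KO;p62T352A mouse was well above the highest Atg7-KO mouse, as the plot of levels by mouse shows for Rpl36 and Rps18. All 5 were called in every fit with 1 mouse left out. Their shared stretches ran from 36.3% in Rpl38 to 77.8% in Rps18, with 70.9% in Rpl36.

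**Figure D3:**
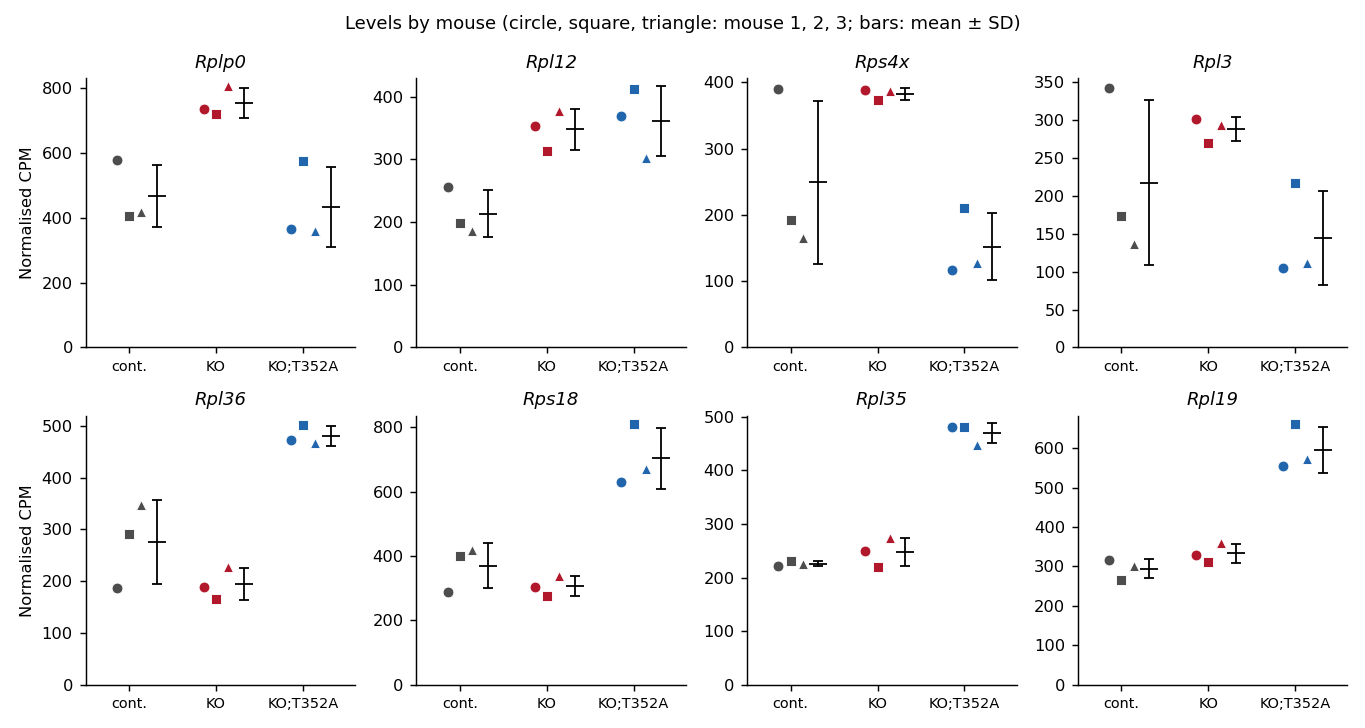
Each panel plots the normalised CPM of one gene in the 9 mice, with the mean ± SD beside each genotype, under shortened genotype names. Rplp0, Rps4x and Rpl3 are high in Atg7-KO mice and low in Atg7-KO;p62T352A mice, Rpl36, Rps18, Rpl35 and Rpl19 are highest in Atg7-KO;p62T352A mice, and cont. mouse 1 lies near the Atg7-KO mice in Rps4x, Rpl3 and Rpl36.

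The fold changes of this comparison varied with the length of the coding sequence. Over the 81 tested genes with an annotated coding sequence, Spearman's rho with coding length was -0.34 in Atg7-KO;p62T352A vs Atg7-KO, 0.33 in Atg7-KO vs cont. and -0.21 in Atg7-KO;p62T352A vs cont. With transcript length, which the offset below uses, rho was -0.23, 0.27 and -0.09 in the same order. These are descriptions across genes, which share the same libraries and are not independent. Among the 27 genes with the shortest coding sequences (75 to 396 bases), 10 were higher and 0 were lower in Atg7-KO;p62T352A vs Atg7-KO by the test, with a median of 0.46. Among the 27 of middle length (399 to 564 bases), 11 were higher and 0 lower, with a median of 0.37. Among the 27 with the longest (576 to 1257 bases), 4 were called higher and 4 lower, with a median of 0.02. From the shortest group to the longest, 37%, 40.7% and 14.8% were called higher, against 24.7% of all tested genes. The shares called lower were 0%, 0% and 14.8%, against 26.2%. GC content varied little with the fold changes, with a rho of 0.04 for the GC percent of the transcript.

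Short transcripts outside the ribosomal protein genes were also called higher more often than lower. Of the 893 other tested genes with a transcript under 1000 bases, 44.2% were higher by the test and 16.5% were lower in Atg7-KO;p62T352A vs Atg7-KO, with a median log2 fold change of 0.60. The 55 ribosomal protein genes of that length had a median of 0.28. With an offset for transcript length in each mouse, the direction turned. The counts were then 3 higher and 22 lower and the median was -0.23. Rpl14, Rpl21 and Rpl28 were the 3 still higher, at 0.60, 0.83 and 0.65, and Rps4x, Rpl9, Rpl3 and Rplp0 were still lower, at -1.78, -1.504, -1.27 and -1.06. Rpl21, named after its values were seen, is a 60S protein that stood at 305, 289.9 and 346 in Atg7-KO mice and 597, 606 and 618 in Atg7-KO;p62T352A mice.

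With library totals alone the counts were 1 higher and 24 lower, on a scale on which the median of all genes was -0.57. Relative to the median of all genes, the ribosomal protein genes stood at 0.29 with TMM, 0.28 with library totals and -0.24 with the length offset, so that their direction turned with the offset and not with this change of scale. The 4 lower genes were called lower in all 3 fits. RNA integrity is not given in the sources used here, and length and genotype cannot be told apart where they move together.

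**Figure D4:**
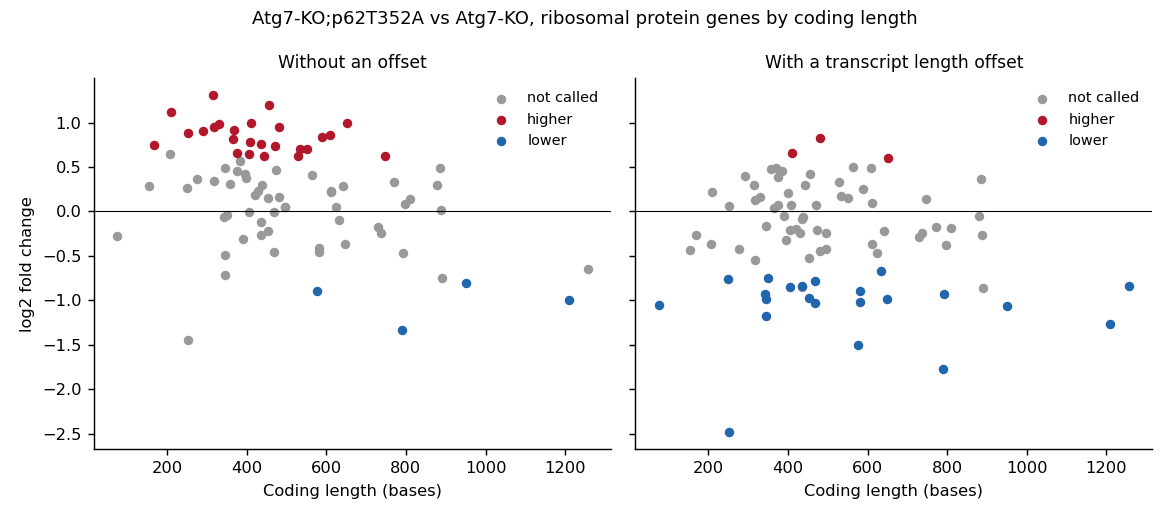
Both panels plot the log2 fold change of Atg7-KO;p62T352A vs Atg7-KO against coding length in bases for the 81 tested genes with a coding sequence, coloured by call, without an offset at the left and with a transcript length offset at the right. The left panel holds most of its called genes above 0 and the right panel under 0, and the 4 genes called lower at the left are called lower at the right as well.

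In Atg7-KO;p62T352A vs cont. livers, 19 of the 82 tested genes were higher and 0 lower, where 6.25% of all tested genes were called higher and 5.34% lower. At an unadjusted p under 0.05, 36 were higher and 0 lower, where 2133 and 1787 of the 13922 tested genes were. DESeq2 also called 0 lower. By the adjusted p alone the counts were also 19 and 0 (6.36% and 5.39%). The median log2 fold change was 0.44, with 71 genes above 0 and 11 below. Of the 60S genes 14 of 43 were higher, and of the 40S genes 5 of 31. The mice of the 2 genotypes did not overlap in 39 genes, all of them higher in Atg7-KO;p62T352A, where 15.5% of all tested genes were higher and 11.2% lower without overlap.

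Rpl35, a 60S protein at the exit of the nascent chain tunnel, led this comparison. It stood at 221, 231 and 226 normalised CPM in cont. mice (226 ± 4.79), 249, 220.1 and 274 in Atg7-KO mice (248 ± 26.8) and 479.9, 480.2 and 447 in Atg7-KO;p62T352A mice (469 ± 19.1). The cont. and Atg7-KO mice overlapped and all Atg7-KO;p62T352A mice stood above them, with a log2 fold change against cont. of 1.05 ± 0.16 (edgeR adjusted p = 0.00811). Rpl19, a 60S protein that reaches across to the small subunit, stood at 315, 267 and 302 in cont. and 554, 662 and 572 in Atg7-KO;p62T352A mice (1.02 ± 0.17, edgeR adjusted p = 0.00967). Rpl13a, which can leave the ribosome as a part of an inhibitory complex of translation, stood at 552, 572 and 534 and at 1017, 1186 and 1049 (0.97 ± 0.17, edgeR adjusted p = 0.0106).

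These 3 genes were the ones called in every fit with 1 mouse left out, and 89.2% of the stretches of Rpl35, 69.9% of those of Rpl19 and 56.3% of those of Rpl13a are shared. The Atg7-KO mice enter this comparison through the filter, the scaling and the estimate of the spread, which all mice share. The count of higher genes was 38 without cont. mouse 1 and 4 without cont. mouse 2. It was 5 without any one of the Atg7-KO mice or without Atg7-KO;p62T352A mouse 1 or 2. It was 3 without Atg7-KO;p62T352A mouse 3, 34 without the mice numbered 1, 0 when only the mice of these 2 genotypes were fitted, and 3 with the length offset, where the median was -0.03 and 0 genes were lower. Other short genes again moved alike, with 19.6% of the 893 called higher and a median of 0.46. The lowest values of the comparison, -0.71 ± 0.34 in Rps4x, -0.59 ± 0.37 in Rpl3 and -0.38 ± 0.28 in Rpl4, did not pass the test, with edgeR adjusted p of 0.202, 0.331 and 0.411.

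Rpsa, a 40S protein also known as the laminin receptor, stood at 496, 379 and 397 in cont. mice, 472, 435 and 503 in Atg7-KO mice and 579, 793 and 601 in Atg7-KO;p62T352A mice. The Atg7-KO;p62T352A mice were above all others, and the adjusted p missed the threshold against both genotypes (edgeR adjusted p = 0.0635 and 0.0693).

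Among the paralogs, Rps27l, a p53 target, stood at 247, 172 and 206 in cont. mice, 197, 165 and 178 in Atg7-KO mice and 419, 301 and 277 in Atg7-KO;p62T352A mice. The last group lay above all others, and the log2 fold change against Atg7-KO was 0.88 ± 0.22 (edgeR adjusted p = 0.00741). Rpl22l1, a paralog of Rpl22, stood at 50.3, 28.7 and 27.8, then at 40.5, 22.6 and 28.0, and then at 48.8, 60.03 and 51.2 (0.81 ± 0.28 against Atg7-KO, edgeR adjusted p = 0.0342). Rpl7l1, at 61.9 to 67.3 in Atg7-KO mice and 49.0 to 61.99 in Atg7-KO;p62T352A mice, and Rps4l, which has no annotated coding sequence and stood at 16.6 to 20.5 and 16.4 to 43.9, overlapped between these genotypes. Rpl3l, Rpl10l and Rpl39l were at or near 0 in all mice.

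The ribosomal protein genes also differed between mice of one genotype. The median deviation from the mean of the 9 mice was -0.01, -0.38 and -0.22 in the cont. mice, 0.01, -0.18 and 0.07 in the Atg7-KO mice and 0.11, 0.55 and 0.10 in the Atg7-KO;p62T352A mice, in log2 CPM. Mouse 1 was the highest of the cont. mice and mouse 2 the highest of the Atg7-KO;p62T352A mice. The genes with short coding sequences stood below those with long ones in all Atg7-KO mice and in cont. mouse 1, by 0.14 to 0.39, and above them in the other 5 mice, by 0.06 to 0.27. The map of deviations shows cont. mouse 1 with the pattern of the Atg7-KO mice for the long genes.

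**Figure D5:**
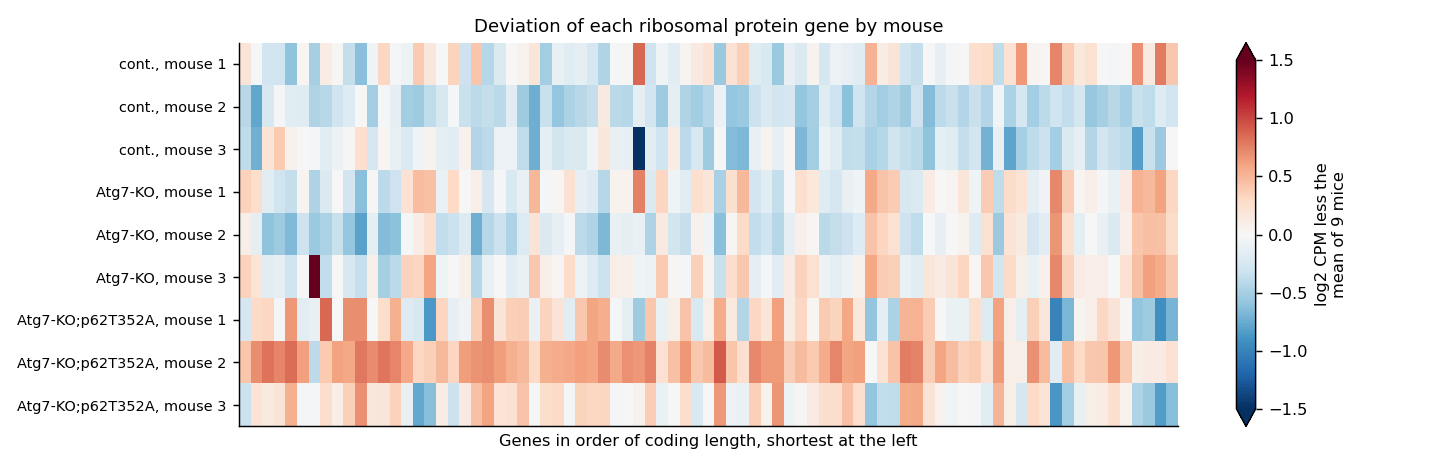
Rows are the 9 mice and columns the 81 tested genes with a coding sequence, from the shortest at the left to the longest at the right, with colour giving log2 CPM less the mean of the 9 mice. Atg7-KO;p62T352A mouse 2 is high in nearly all columns, the long genes at the right edge are high in cont. mouse 1 and the Atg7-KO mice and low in Atg7-KO;p62T352A mice 1 and 3, and the dark cell of Atg7-KO mouse 3 is Rps27, beyond the scale.

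The genes around the ribosomal proteins were read from 3 lists, and their calls stand against the same shares of all tested genes. Of 16 tested regulators of ribosomal protein mRNAs, 2 were higher and 4 lower in Atg7-KO vs cont., and 5 were higher and 3 lower in Atg7-KO;p62T352A vs Atg7-KO, with medians of 0.03 and -0.08. Eif4ebp1, the translation repressor that mTOR inactivates, stood at 34.5 to 55.9 normalised CPM in cont. mice, 84.7 to 109.6 in Atg7-KO mice and 38.3 to 51.9 in Atg7-KO;p62T352A mice (1.19 ± 0.23 and -1.10 ± 0.23, edgeR adjusted p = 0.00286 and 0.00333). Myc, a transcription factor that drives ribosome production, had log2 fold changes of 1.61 ± 0.54 and -1.71 ± 0.54 in these comparisons (edgeR adjusted p = 0.0345 and 0.0227). Its cont. mice stood at 3.09, 4.07 and 17.5 and its Atg7-KO mice at 20.3 to 29.1, so that they did not overlap. The first value was 2.78 without cont. mouse 3. It lost its call in 10 of 27 alternatives, among them those without cont. mouse 2 or any one of the 6 mice with Cre.

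Rps6kb2, a ribosomal S6 kinase, and Zfp598, a ubiquitin ligase at stalled ribosomes, were the lowest regulators in Atg7-KO vs cont., at -1.65 ± 0.34 and -1.39 ± 0.29 (edgeR adjusted p = 0.00386 and 0.00423). Rps6kb2 stood at 12.1, 36.9 and 30.2 in cont. mice, 8.14 to 8.62 in Atg7-KO mice and 20.5 to 25.6 in Atg7-KO;p62T352A mice, with cont. mouse 1 again nearest to the Atg7-KO mice. Larp1, the repressor that binds the oligopyrimidine tract, was named after its values were seen. It stood at 197, 283 and 275 in cont. mice, 138, 154 and 168 in Atg7-KO mice and 467, 386 and 497 in Atg7-KO;p62T352A mice. The 3 genotypes did not overlap, and the log2 fold changes were -0.71 ± 0.20, 1.55 ± 0.21 and 0.84 ± 0.20 in the 3 comparisons (edgeR adjusted p = 0.0169, 0.000321 and 0.0289).

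Of 38 genes of ribosome biogenesis, 6 were higher and 4 lower in Atg7-KO vs cont., and 11 higher and 2 lower in Atg7-KO;p62T352A vs Atg7-KO, with medians of 0.06 and 0.24. Eif6, which keeps new 60S subunits from joining 40S subunits, stood at 24.4 to 49.7 in cont. mice, 86.9 to 94.6 in Atg7-KO mice and 24.4 to 40.7 in Atg7-KO;p62T352A mice (1.39 ± 0.29 and -1.57 ± 0.29, edgeR adjusted p = 0.00371 and 0.00163). Gar1, a protein of the particles that modify ribosomal RNA, was higher (0.96 ± 0.25, edgeR adjusted p = 0.0105), and Rcl1, of 18S rRNA processing, and Polr1b, a subunit of RNA polymerase I, were lower in Atg7-KO vs cont. (-0.88 ± 0.18 and -0.77 ± 0.22, edgeR adjusted p = 0.00334 and 0.0188).

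Of 25 tested translation factors and other genes with oligopyrimidine mRNAs, 3 were higher and 1 lower in Atg7-KO vs cont., and 7 higher and 5 lower in Atg7-KO;p62T352A vs Atg7-KO, with medians of 0.25 and -0.21. The largest rises in Atg7-KO were those of Vim, an intermediate filament gene of stromal cells, and Nap1l1, a histone chaperone (1.93 ± 0.23 and 1.20 ± 0.26, edgeR adjusted p = 0.000224 and 0.00486), and the largest falls those of Pabpc4, a poly(A)-binding protein, and Eef1d, an elongation factor subunit (-1.00 ± 0.23 and -0.64 ± 0.25, edgeR adjusted p = 0.00655 and 0.062, of which the second did not pass). Fau, whose product is a ribosomal protein outside the symbol rule and which was named after its values were seen, had a log2 fold change of 0.75 ± 0.20 in Atg7-KO;p62T352A vs Atg7-KO (edgeR adjusted p = 0.0116). Of the ribosomal protein genes themselves, the 24 with a pyrimidine run at the RefSeq start had a median log2 fold change of 0.44 in that comparison, with 10 higher and 0 lower. The 37 tested genes with a start and no run had a median of 0.28, with 9 higher and 3 lower. The 21 genes with no RefSeq start had a median of 0.23, with 6 higher and 1 lower. In this order 41.7%, 24.3% and 28.6% were called higher, against 24.7% of all tested genes. The shares called lower were 0%, 8.11% and 4.76%, against 26.2%. The difference between these groups was not tested.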

How the data were processed

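Liver RNA of 9 mice was compared. The authors deposited RSEM expected counts per gene, made with Trim Galore, STAR and RSEM on mm10, and these were rounded to whole numbers. Versions, annotation and strand setting are not given in the sources used here, so a gene and an antisense or overlapping gene cannot be told apart. Totals of 9671080 to 23285132 counts set the precision for low genes. Limits from counts of 0 cover counting error only, and p-values measure the spread between these mice.

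The 3 genotypes were fitted together with edgeR 4.0.16 (R 4.3.3) by filterByExpr, TMM and the quasi-likelihood test with Benjamini-Hochberg adjustment over 13922 genes. A call needed an adjusted p under 0.05 and a fold over 1.5. Shares of counts were compared by exact permutation, and figures were drawn with matplotlib 3.10.9. Alternatives were DESeq2 1.42.0, other scalings, filters and thresholds, a lowess offset (span 0.3) for transcript length, a replicate block, and each mouse left out. The offsets for GC content, the fits without the mice numbered 1 and the counts limited to genes sharing under 20% of their stretches were chosen after seeing the data.

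Transcripts and gene positions were those of GENCODE vM21, and start windows those of RefSeq on GRCm38.p6, searched on the gene's own strand. The genes named were the 5 largest rises and 5 largest falls in each comparison with Atg7-KO, the 3 and 3 in the third, the stalk genes, Rpsa, the paralogs, the 3 highest per kb, the 2 largest rises and falls of each pathway list in Atg7-KO vs cont., and Atg7 and Sqstm1. The genes and lists were chosen with earlier results of these data known.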

Additional observations from a re-analysis of the deposited data

How the results depend on the processing

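The share of counts kept its direction in all 3 comparisons under the alternatives run, all of them shares of counts without TMM scaling. On summed normalised CPM, Atg7-KO;p62T352A vs Atg7-KO turned, at a ratio of 1.24 against 0.825 for the share. The numbers of called ribosomal protein genes changed with the alternatives. Only 16 tested genes shared under 20% of their stretches, against 82 in all. Of these 16, 6.25%, 12.5% and 18.8% were called higher in the 3 comparisons in turn, against 4.88%, 30.5% and 23.2% of the 82. The 4 genes higher in Atg7-KO vs cont. became 56 with library totals, 7 with the length offset, 8 with GC and length offsets, 18 without the mice numbered 1, 2 with no filter or only the 2 genotypes, 1 with DESeq2 size factors, with the GC offset or among genes under 20% shared, and 0 with glmTreat. They ranged from 0 to 21 with a mouse left out. The 1 gene lower there became 0 with library totals, upper-quartile scaling, no filter, a minimum of 10 counts, glmTreat, the length offset, GC and length offsets or among genes under 20% shared, 2 without the mice numbered 1, and 0 to 2 with a mouse left out.

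In Atg7-KO;p62T352A vs Atg7-KO, the 25 higher and 4 lower genes became 1 and 24 with library totals, 3 and 22 with the length offset, 4 and 24 with GC and length offsets, 9 and 1 with glmTreat and 2 and 0 among genes under 20% shared. The higher count was 16 with upper-quartile scaling. With a mouse left out the counts ran from 16 to 26 and from 1 to 8. In Atg7-KO;p62T352A vs cont., the 19 higher genes became 12 with DESeq2 size factors, 9 with no filter, 0 with only the 2 genotypes or glmTreat, 3 with the length offset, 4 with GC and length offsets, 34 without the mice numbered 1, 3 among genes under 20% shared, and 3 to 38 with a mouse left out, with 0 lower under each. DESeq2 called 4 and 1, 25 and 4, and 24 and 0 genes. The cause of these moves was not tested.

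The labels do not say that a mouse number marks a shared litter or day, and the data left a pairing unclear. Over the 9 same-numbered pairs the correlation of deviations ran from -0.20 to 0.32 (mean 0.15), with 6 over 0.1, and over the other 18 pairs from -0.34 to 0.18 (mean -0.07), with 4 over 0.1. The pairs of mice numbered 1 and 3 were all over 0.1 and those numbered 2 were not, and the mice numbered 1 also differed from the others in Xist. With a replicate block the counts were 2 higher and 0 lower, 25 and 4, and 6 and 0 in the 3 comparisons, so that 13 of the 19 calls in Atg7-KO;p62T352A vs cont. were lost. With the length offset and the block they were 7 and 0, 3 and 22, and 1 and 0, and with GC and length offsets and the block also 7 and 0, 3 and 22, and 1 and 0.

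Of 2538 alternatives for 94 pairs of named gene and comparison, 2184 kept the result of the main fit, whether called or not called. In 214 a call was lost and in 68 one was gained. In 67 the sign of the fold change turned with no call in either fit. In 5 the sign turned where the main fit or the alternative held a call. With GC and length offsets, Rpl36 and Rpl38 in Atg7-KO;p62T352A vs Atg7-KO were at -0.0242 and -0.0464, and with the block added at -0.0249 and -0.0472. Myc in Atg7-KO;p62T352A vs cont. ran from -0.51 to 1.08 with a mouse left out and was at 1.08 without cont. mouse 3.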

Other observations

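Some annotated copies of ribosomal protein genes, named after their values were seen, took reads that the symbol rule does not count. Of the counts of each pair, 0.535% to 4.63% lay on Rps27 rather than Rps27rt, 0.525% to 3.85% on Rpl26 rather than Gm15772, 2.89% to 6.17% on Rpl30 rather than Gm12191 and 13.2% to 20.7% on Rpl34 rather than Rpl34-ps1. Most counts lay on the gene itself for Rpl31 (90.6% to 99.2%), Rpl14 (94.5% to 99.9%), Rpl37 (87.8% to 95.4%) and Rpl22l1 (93.5% to 99.1%). Rps27rt, Rpl34-ps1 and Gm12191 were called in no comparison.

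Gm15772 was higher in Atg7-KO;p62T352A vs Atg7-KO livers, at a log2 fold change of 1.01 ± 0.19 (edgeR adjusted p = 0.00195). Rpl31-ps12 stood at 2.87, 17.4 and 26.6 normalised CPM in the cont. mice, 2.81, 4.27 and 4.95 in the Atg7-KO mice and 40.7, 50.2 and 40.6 in the Atg7-KO;p62T352A mice. It was higher in the last group than in Atg7-KO livers by 3.45 ± 0.63 (edgeR adjusted p = 0.00166), and cont. mouse 1 lay within the Atg7-KO mice. Rpl14-ps1 moved the other way, at -2.40 ± 0.78 (edgeR adjusted p = 0.0256), with 8.71, 1.89 and 0.330 in the cont. mice, 6.40 to 11.4 in the Atg7-KO mice and 1.21 to 2.24 in the Atg7-KO;p62T352A mice. Reads of a copy and its parent gene cannot be told apart where their sequence is shared.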
